A study of Homo sapiens with 4 samples.

Results

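The genes described here lie on the long arm of human chromosome 8, in band 8q24 around the oncogene MYC. They are the 9 genes MTSS1, WASHC5, NSMCE2, TRIB1, LRATD2, PVT1, CYRIB, ASAP1 and ADCY8, chosen by their place next to MYC and not by a measured value, out of 19775 genes measured with probe sets of 1 gene symbol. All 9 were found, with 23 probe sets that carry 1 member symbol alone. A further 4 probe sets carry the symbols MIR1204 and PVT1 together, and are given separately. Total RNA of each line was hybridised to GeneChip Human Genome U133 Plus 2.0 arrays, 2 for COLO-320DM and 2 for 320-IWR. COLO-320DM is the parental line, labelled as human colon cancer. 320-IWR is its subline with resistance to tankyrase inhibitors, obtained by continuous treatment with IWR-1, a small molecule that inhibits tankyrase and thereby stabilizes Axin and lowers β-catenin. 320-IWR is a single resistant line, so a difference describes these lines and not resistance in general. Whether IWR-1 was present at harvest is not stated in the sources used here, and nothing says that the replicates were separate cultures, so the p-values rest on a spread between arrays that may be no more than technical.

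Band 8q24 is among the most frequently gained regions in solid tumours, and MYC, the transcription factor gene that drives cell growth, is taken to be its main target. MYC stands between a stretch with few genes, which holds long noncoding RNAs and enhancers active in the intestine, and PVT1, a noncoding RNA gene that is often gained or rearranged together with it. COLO-320DM is a textbook case of MYC amplification, and the letters DM in its name stand for double minutes, small extrachromosomal elements that carry the amplified copies. MYC is also a known target gene of β-catenin, which makes its neighbourhood one to look at in cells that grew through long inhibition of that pathway. Expression arrays measure transcripts, so gene copies were not measured, and a change in copies cannot be told apart from a change in transcription. For the same reason a change in the mix of cells in a culture cannot be told apart from a change in each cell.

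Intensities are on the linear scale of the deposited values, and a log2 fold change is the mean log2 value of 320-IWR minus that of COLO-320DM. A probe set is said to rise or fall at a Benjamini-Hochberg adjusted p under 0.05 in limma's fit over all 54613 probe sets together with at least a 2-fold difference. Median intensities of the arrays lay between 41.0 and 41.8, and no array stood apart by its range. Of 12 colorectal epithelial markers, 6 had a mean log2 value of at least 6, and EPCAM and CDH1 were among those that did not. KRT8 and KRT18 fell and KRT20 rose in 320-IWR cells, and the summed intensity of this list was 5587 and 5337 in COLO-320DM and 3759 and 3744 in 320-IWR. Such a sum follows the brightest genes, and 8 of the 12 were higher in 320-IWR, with a median log2 fold change of 0.04. Over all genes 54.2% were higher, with a median of 0.02. None of 8 neuroendocrine markers reached a mean log2 value of 6. Of the markers of other cell types, 2 of 6 leukocyte, 3 of 8 fibroblast and 1 of 6 endothelial genes reached it. Their summed intensities were 348 to 373, 696 to 1597 and 202 to 213 in COLO-320DM, and 385 to 425, 676 to 1564 and 198 to 224 in 320-IWR. No detection calls come with the values, so the distance of a dim probe set from background is unknown. The part of these marker levels in the results below was not tested.

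MTSS1 was the member that fell in 320-IWR cells. It encodes an I-BAR domain protein that binds actin and curves the plasma membrane, and is known as a metastasis suppressor. Its brightest probe set, 203037_s_at, read 441 and 719 in COLO-320DM and 40.7 and 60.3 in 320-IWR. Both 320-IWR arrays thus lay far below both COLO-320DM arrays, although the replicates of each line differed from one another as well. The mean intensity was 580 ± 197 in COLO-320DM and 50.5 ± 13.9 in 320-IWR (SD, n = 2 each). The difference was 11.4-fold lower in 320-IWR (log2 fold change -3.51, standard error 0.31, 95% interval -4.33 to -2.69, limma adjusted p = 0.0413). Between arrays of the same number it was 10.8-fold for replicate 1 and 11.9-fold for replicate 2. Of the 23 probe sets 1 fell and 0 rose, while 0.37% of all probe sets were called, 0.258% as lower and 0.112% as higher.

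The other 4 probe sets of MTSS1 did not pass the test. Probe set 203036_s_at read 62.4 and 69.4 in COLO-320DM and 51.5 and 38.5 in 320-IWR, again without overlap (log2 fold change -0.56, 95% interval -1.04 to -0.08, adjusted p = 0.418). For 229780_at the intensities were 33.9 and 33.0 against 33.8 and 30.9 (log2 fold change -0.05). Probe sets 210359_at and 210360_s_at read between 12.4 and 22.5 on all arrays and had log2 fold changes of -0.32 and -0.28. All 5 probe sets pointed down, but the 4 with a mean log2 value under 6 were lower by at most 1.48-fold. Of 109 genes with a called probe set and at least 1 other, 72 (66.1%) had another probe set that differed at least 2-fold the same way, and MTSS1 was not among them. Where the other probe set had a mean log2 value of at least 6 this held for 42 of 54 genes (77.8%), a count that MTSS1 does not enter. Averaged over its 5 probe sets, MTSS1 had a log2 fold change of -0.94 (adjusted p = 0.102). Which transcripts each probe set reads was not tested. The call was lost without any 1 of the arrays, with log2 fold changes of -3.86 and -3.16 without COLO-320DM replicates 1 and 2 (adjusted p = 0.0652 and 0.0877) and -3.22 and -3.79 without 320-IWR replicates 1 and 2 (adjusted p = 0.293 and 0.234).

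LRATD2, formerly FAM84B, gave a split reading. It is the last protein-coding gene before the gene-poor stretch upstream of MYC apart from POU5F1B, and its protein belongs to the LRAT domain family. The brightest probe set, 225864_at, read 5561 and 4359 in COLO-320DM and 4303 and 4356 in 320-IWR. These values were all high, and 320-IWR lay below COLO-320DM, by a hair at its closest. The log2 fold change was -0.19 (standard error 0.16, 95% interval -0.61 to 0.23, adjusted p = 0.883). Probe set 228870_at, annotated to the same gene, read 1989 and 2735 in COLO-320DM but 379 and 545 in 320-IWR. Here every 320-IWR array was far below every COLO-320DM array, by 5.14-fold on average (log2 fold change -2.36, standard error 0.25, 95% interval -3.02 to -1.70). Its limma adjusted p of 0.0622 missed the threshold, so it is not counted as a fall. The 95% intervals of these 2 probe sets do not overlap. The third, 230817_at, was dim, with 11.2 and 19.7 against 13.1 and 18.8 (log2 fold change 0.08). Averaged over the 3 probe sets, LRATD2 had a log2 fold change of -0.82 (adjusted p = 0.157). Probe set 228870_at passed in limma under cyclic loess normalization (adjusted p = 0.0432) and with a block for the replicate number (adjusted p = 0.0171). It did not pass with equal array medians or a trended robust prior (adjusted p = 0.0605 and 0.0581). Nor did it with a limit on dim probe sets or without _x_at and _s_at probe sets (adjusted p = 0.0523 and 0.0637). With an array left out, its log2 fold change lay between -2.62 and -2.10.

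**Figure D1:**
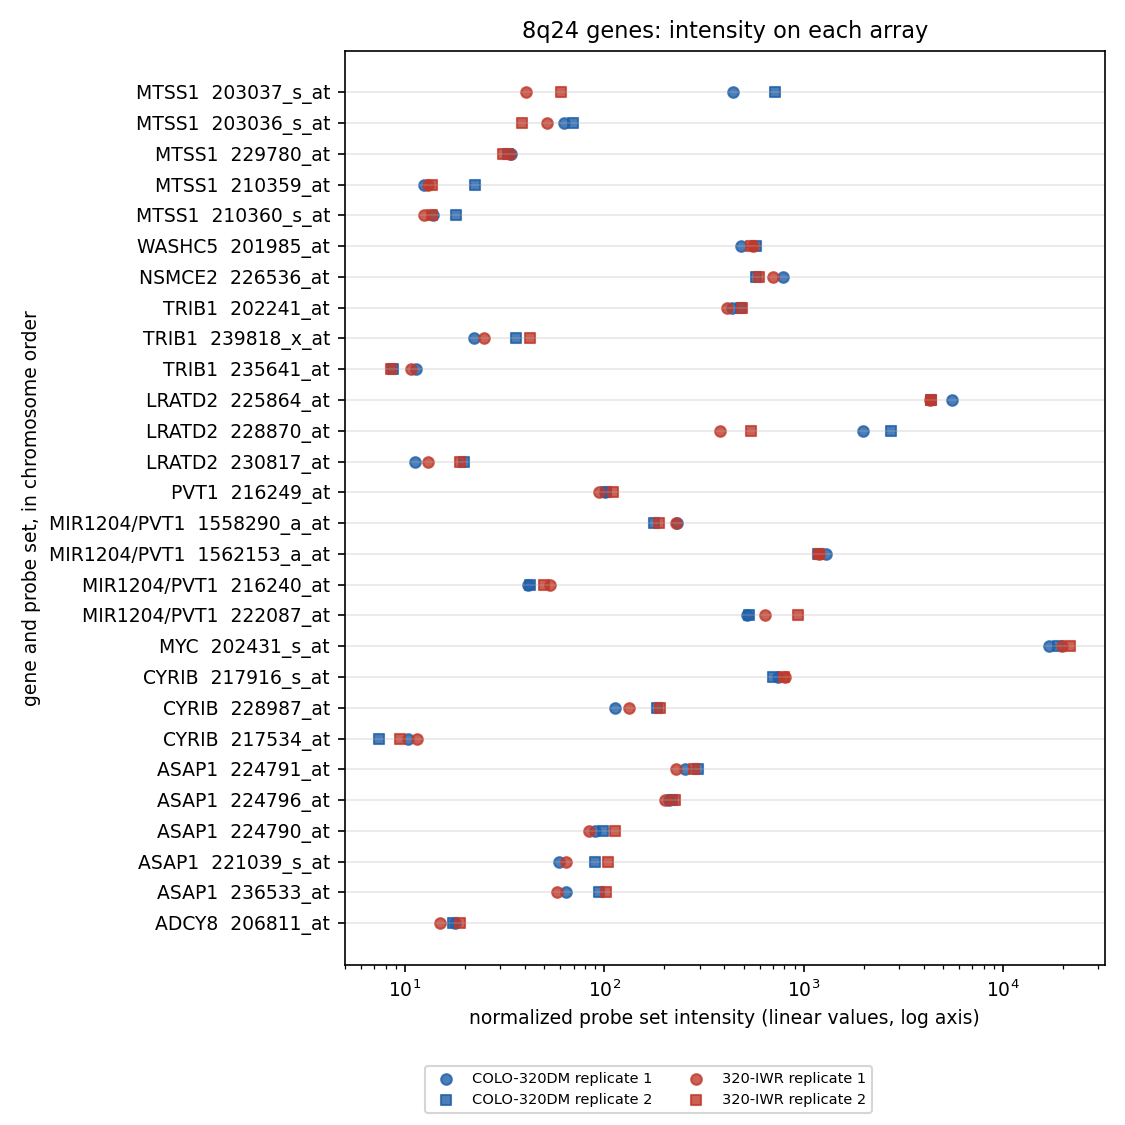
Normalized intensity (log axis) of each probe set of the 9 genes on the 4 arrays, in chromosome order, with the probe sets shared by MIR1204 and PVT1 and that of MYC for reference; each point is 1 array, blue for COLO-320DM and red for 320-IWR, circles for replicate 1 and squares for replicate 2. Only MTSS1 203037_s_at and LRATD2 228870_at show a wide gap between the lines, and intensities of different probe sets are not comparable with each other.

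Of the genes between MTSS1 and LRATD2, the members WASHC5, NSMCE2 and TRIB1 showed no difference beyond the spread between arrays. WASHC5 encodes strumpellin, a subunit of the WASH complex that nucleates actin on endosomes. Its intensities were 486 and 573 in COLO-320DM and 555 and 544 in 320-IWR (log2 fold change 0.06, 95% interval -0.30 to 0.42). NSMCE2, the SUMO ligase of the SMC5/6 complex that protects replicating chromosomes, read 791 and 576 against 698 and 599 (log2 fold change -0.06, 95% interval -0.58 to 0.46). In both genes the 320-IWR values lay within the spread of the COLO-320DM arrays.

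TRIB1 encodes a pseudokinase that brings substrates such as C/EBPα to the ubiquitin ligase COP1. Its brightest probe set, 202241_at, read 436 and 486 in COLO-320DM and 414 and 492 in 320-IWR (log2 fold change -0.03, 95% interval -0.42 to 0.36). The lower reading of each line came from replicate 1 and the higher from replicate 2. The dimmer probe sets 239818_x_at and 235641_at had log2 fold changes of 0.19 and -0.06, and the interval of the former, -0.73 to 1.11, reached past 2-fold.

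PVT1, the gene next to MYC on its downstream side, did not differ detectably in the probe set that carries its symbol alone. Probe set 216249_at read 101 and 102 in COLO-320DM and 93.9 and 110 in 320-IWR, so the 320-IWR arrays lay on either side of the parental ones. The log2 fold change of this probe set was 0.00 (standard error 0.14), and its 95% interval of -0.35 to 0.36 lay within 2-fold. PVT1 is the host gene of the microRNA MIR1204, and the 4 probe sets annotated to both symbols were less uniform. Probe set 1562153_a_at read 1300 and 1181 against 1192 and 1192, and 1558290_a_at read 232 and 178 against 228 and 187 (log2 fold changes -0.06 and 0.02). For 222087_at the values were 521 and 530 in COLO-320DM and 635 and 939 in 320-IWR, and for 216240_at 41.4 and 42.6 against 53.1 and 49.5. In the latter 2 probe sets all 320-IWR readings were higher, with log2 fold changes of 0.56 and 0.29, but limma's adjusted p was 0.519 and 0.563. Over all probe sets the arrays of the lines did not overlap in 35.6%. The 95% interval of 222087_at, -0.004 to 1.12, reached past 2-fold.

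MYC itself was bright on every array, at 17068 and 18942 in COLO-320DM and 19698 and 21695 in 320-IWR. These readings were 75.9% to 100% of the highest intensity on the same array, and whether they were compressed near that ceiling was not tested. The 320-IWR arrays were higher by 1.15-fold (log2 fold change 0.20, 95% interval -0.14 to 0.54, limma adjusted p = 0.794). POU5F1B, a retrogene copy of the pluripotency factor gene POU5F1 between LRATD2 and MYC, rose from 230 and 184 to 2457 and 2427 (log2 fold change 3.57, adjusted p = 0.00853). Its probe set, 214532_x_at, is of a kind that may bind related transcripts, and another probe set with like values (log2 fold change 3.44) is annotated to POU5F1, POU5F1B and other copies together, so the source of this signal among them is uncertain. The call was lost without either 320-IWR array, where limma called 0 of all probe sets.

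On the far side of PVT1, CYRIB, ASAP1 and ADCY8 did not pass the test. CYRIB, formerly FAM49B, encodes a protein that binds active RAC1 and restrains the WAVE complex at the cell edge. Its brightest probe set, 217916_s_at, read 742 and 703 in COLO-320DM and 807 and 794 in 320-IWR, higher on both 320-IWR arrays by 1.11-fold (log2 fold change 0.15, 95% interval -0.16 to 0.45, adjusted p = 0.856). The other probe sets of CYRIB gave 113 and 184 against 133 and 189, and 10.3 and 7.42 against 11.4 and 9.48 (log2 fold changes 0.13 and 0.25). All 3 pointed up, and none passed the test.

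ASAP1 encodes a GTPase-activating protein for ARF proteins that acts in podosomes, focal adhesions and cell migration. It had 5 probe sets, all with a mean log2 value of at least 6, and their log2 fold changes lay between -0.10 and 0.16. The brightest, 224791_at, read 253 and 295 in COLO-320DM and 230 and 282 in 320-IWR (log2 fold change -0.10, 95% interval -0.53 to 0.33). Probe set 224796_at was the most precise, with 210 and 218 against 201 and 226 (log2 fold change -0.01, 95% interval -0.34 to 0.33). On all 5 probe sets replicate 2 was higher than replicate 1 in both lines, for example in 221039_s_at, with 59.1 and 90.0 in COLO-320DM and 63.9 and 104 in 320-IWR. ADCY8, a calcium-stimulated adenylyl cyclase known mainly from the brain, was dim on all arrays. It read 17.9 and 17.4 against 14.9 and 18.8 (log2 fold change -0.07, 95% interval -0.48 to 0.34), and its single probe set was the only brightest probe set of the 9 with a mean log2 value under 6.

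**Figure D2:**
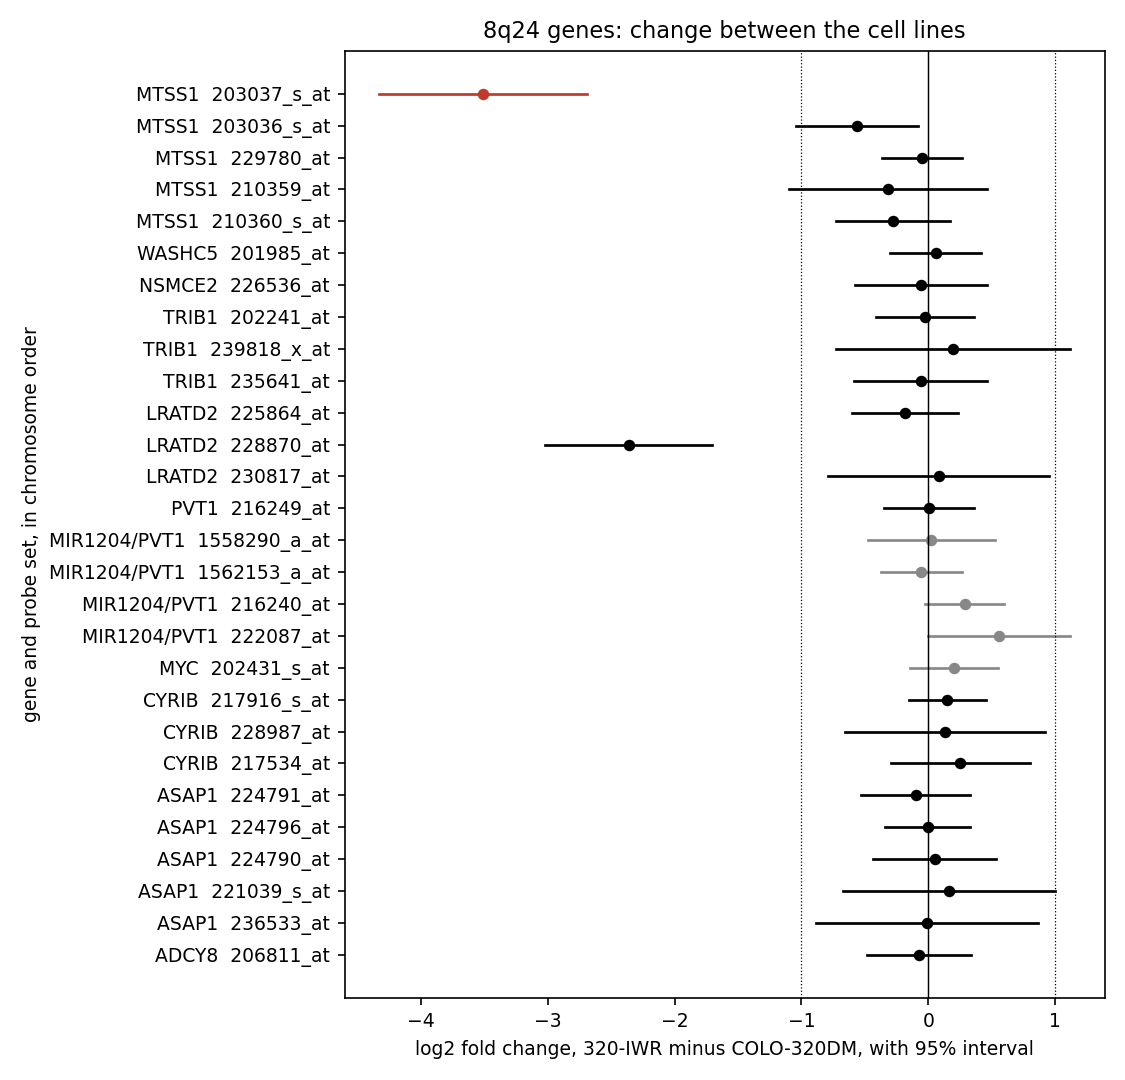
Log2 fold change (320-IWR minus COLO-320DM) of each probe set with its 95% interval from limma, in chromosome order; red marks a probe set that passed the test, black the others of the 9 genes, grey the reference probe sets, and dotted lines mark 2-fold. MTSS1 203037_s_at (-3.51) and LRATD2 228870_at (-2.36) lie beyond 2-fold, and the intervals of the others include 0 except that of MTSS1 203036_s_at.

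Counted by brightest probe sets, 1 of the 9 genes fell and 0 rose, against 0.592% of all genes measured that were called, 0.399% as lower and 0.192% as higher. At least 2-fold lower in 320-IWR were 2 of the 23 probe sets and at least 2-fold higher 0, beside 1.36% and 0.586% of all probe sets. At an unadjusted p under 0.05 limma found 3 of the 23 probe sets, while 9.71% of all probe sets met that limit, and these were 2 of MTSS1 and 1 of LRATD2. The arrays of the lines did not overlap in 1 probe set that was higher and 5 that were lower in 320-IWR, where 35.6% of all probe sets did not overlap. The lower ones were 3 of MTSS1 and 2 of LRATD2, and the higher one was of CYRIB. Among brightest probe sets it was 1 higher and 2 lower of 9, where 38.6% of all genes did not overlap. Over the brightest probe sets the median log2 fold change was -0.06 with 3 of 9 genes higher, beside 0.02 and 54.2% higher over all genes. The 8 genes other than MTSS1 had log2 fold changes between -0.19 and 0.15 in these probe sets. Their 95% intervals in these probe sets all stayed within 2-fold, the lowest bound being -0.61 and the highest 0.46. Differences up to 1.52-fold lower or 1.37-fold higher thus lay inside at least 1 of these intervals. Such bounds are not the size at which a call was made, since LRATD2 228870_at was 5.14-fold lower and was not called. Of the 22 probe sets of the 9 genes that were not called, 17 had an interval within 2-fold. Apart from the probe sets of MTSS1 and LRATD2, the 15 remaining ones had a median log2 fold change of 0.00 and 8 of them were higher.

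By brightest probe sets, the calls of MTSS1 and POU5F1B were not shared by the genes beside them. In the order of the gene table of GRCh38.p14, 22 measured genes lie from MTSS1 to ADCY8, and MTSS1 fell, POU5F1B rose and the other 20 did not pass. Over all genes 0.399% were called as lower and 0.192% as higher. The median log2 fold change of the 22 genes was -0.03. Just before MTSS1, NDUFB9 read 3555 and 3070 against 3501 and 3255 (log2 fold change 0.03). Just after it, LINC00964 was dim (log2 fold change -0.03), and ZNF572 and SQLE were lower without passing. ZNF572 read 70.1 and 46.0 in COLO-320DM and 40.6 and 28.4 in 320-IWR (log2 fold change -0.74, adjusted p = 0.506). SQLE, which encodes squalene epoxidase of cholesterol synthesis, read 2914 and 2244 against 2414 and 1485 (log2 fold change -0.43, adjusted p = 0.790). The 4 SQLE probe sets had log2 fold changes between -0.63 and -0.37.

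Beyond the 9 genes, a list of 35 protein-coding genes flanking them in 8q24 was read in the same way. Of these, 31 were measured under the symbols listed. POU5F1B rose and none fell, where 0.192% of all genes were called as higher and 0.399% as lower. At an unadjusted p under 0.05 limma found 6, beside 12.3% of all genes by brightest probe set. The median log2 fold change was 0.05 and 24 of 31 were higher, beside 0.02 and 54.2% over all genes. The listed genes were picked and are not all genes of the band. In the unpicked order, 17 of the 30 measured genes before MTSS1 and 17 of the 30 after ADCY8 were higher (56.7% each). After POU5F1B the highest of the list were ZHX2 (log2 fold change 0.83), KHDRBS3 (0.41) and EFR3A (0.38). The lowest of the list after ZNF572 and SQLE were TMEM65 and FAM91A1 (both -0.09). ZHX2, a transcriptional repressor gene, read 101 and 94.9 in COLO-320DM and 178 and 170 in 320-IWR, apart on all arrays but with an adjusted p of 0.111. EFR3A read 397 and 368 against 510 and 483 (adjusted p = 0.415). Of 21 noncoding genes near MYC 7 were measured, all with a mean log2 value under 6, and their log2 fold changes lay between -0.06 and 0.05. None of the 7 was called by limma, and at an unadjusted p under 0.05 there were 0. CASC11, the noncoding gene just before MYC, read 35.5 and 45.5 against 36.0 and 48.5.

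**Figure D3:**
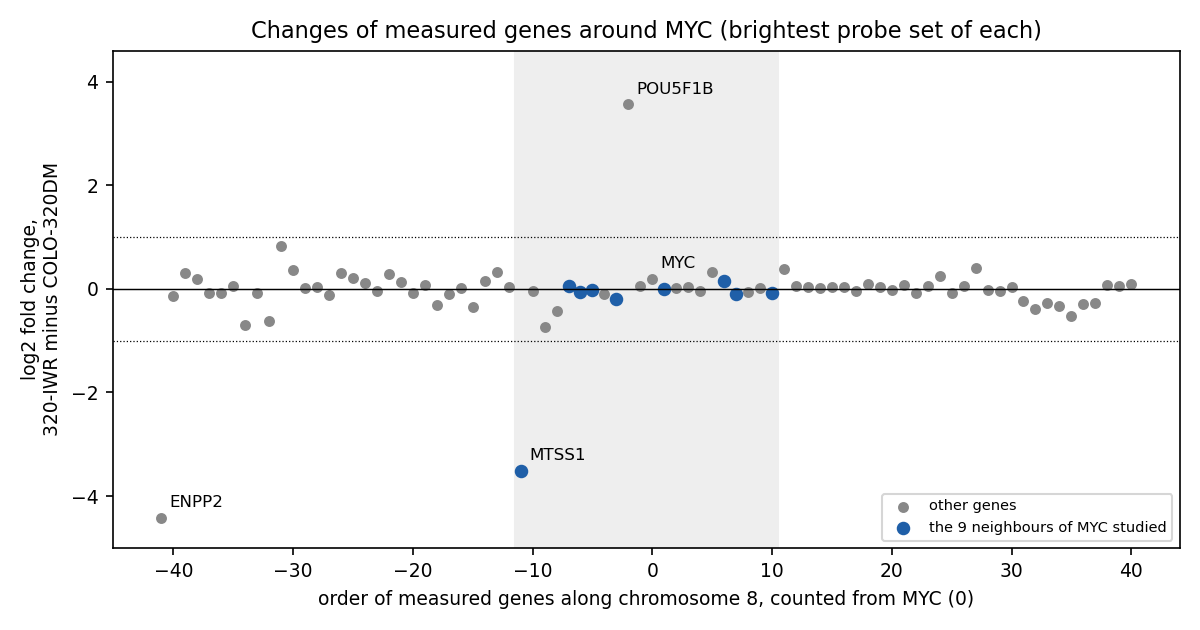
Log2 fold change (320-IWR minus COLO-320DM) of measured genes around MYC by their order along chromosome 8, counted from MYC at 0; each point is the brightest probe set of a gene, blue for the 9 genes and grey for others, the shaded part runs from MTSS1 to ADCY8, dotted lines mark 2-fold, and names are given for genes that passed the test and for MYC. In the shaded part MTSS1 (-3.51) and POU5F1B (3.57) lie beyond 2-fold, and ENPP2 (-4.42) marks the left edge. ZNF572 (-0.74) and SQLE (-0.43) lie lower near MTSS1. LRATD2 is drawn at -0.19, and its less bright probe set 228870_at (-2.36) is not shown.

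The wider chromosome was looked at as well. Of the 30 measured genes before MTSS1, 1 fell and 5 had p under 0.05 in limma before adjustment, with a median log2 fold change of 0.03. The gene that fell was ENPP2, the lysophosphatidic acid producing enzyme gene at the far end of these 30. Of the 30 after ADCY8 limma called 0 and 3 had p under 0.05 before adjustment, beside 12.3% of all genes, with a median of 0.04. Over all 694 measured genes of chromosome 8 outside MTSS1 to ADCY8, both stretches included, 0 rose, ENPP2 fell, and 3 and 10 were at least 2-fold higher and lower. The corresponding shares over all genes were 0.192% called as higher and 0.399% as lower, and 0.87% and 1.93% at least 2-fold higher and lower.

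Partners and paralogs of the encoded proteins were read next. Over 52 such genes in 8 lists limma called 0, with 7 at an unadjusted p under 0.05, where 0.592% and 12.3% of all genes met these limits. Their median log2 fold change was -0.03, with 20 of 52 higher. Among the I-BAR proteins, relatives of MTSS1, BAIAP2L1 read 217 and 183 in COLO-320DM and 88.1 and 94.0 in 320-IWR (log2 fold change -1.13 with a standard error of 0.14, adjusted p = 0.0852). Its other probe sets were lower too (log2 fold changes -0.42 and -0.52), and on all 3 the lines were apart without passing the test. MTSS2, the closest paralog of MTSS1, read 109 and 123 against 114 and 104 (log2 fold change -0.09). LRATD1, the paralog of LRATD2, read 3036 and 1855 against 2738 and 1833 (log2 fold change -0.08), differing more between replicates than between lines.

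In the SMC5/6 complex, to which NSMCE2 belongs, 4 of 7 measured genes were higher, with a median log2 fold change of 0.22. SMC6, one of the core ATPases, read 556 and 460 in COLO-320DM and 946 and 699 in 320-IWR (log2 fold change 0.69, adjusted p = 0.359), and its second probe set had 0.49. The WASH complex list had 1 of 6 genes higher and a median of -0.10, and WASHC3 was furthest from 0 (log2 fold change -0.73), with replicates of COLO-320DM as far apart as 1893 and 737. For the Tribbles list the median was 0.23 over 6 genes, and C/EBPα gene CEBPA, the furthest, read 36.9 and 47.7 against 41.6 and 81.8. TRIB2, a paralog of TRIB1, read 949 and 893 against 1177 and 1235 (log2 fold change 0.39, adjusted p = 0.385).

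The list of ASAP1 relatives, which act on ARF GTPases, also held genes of ARF GTPases themselves. It had a median log2 fold change of 0.01 over the brightest probe sets of 10 genes, of which ASAP3 was furthest from 0 (-0.43). A dimmer probe set of ARAP2 in this list, chosen after its values were seen, read 35.1 and 33.8 in COLO-320DM and 117 and 92.5 in 320-IWR (log2 fold change 1.59, adjusted p = 0.0536), while the brightest of ARAP2 had 0.08. The list around CYRIB, RAC1 and the WAVE complex, had a median of -0.01 over 9 genes, with WASF3 furthest (-0.34). Of 9 other adenylyl cyclase genes 2 were higher, and the median was -0.16. ADCY7 read 1788 and 735 in COLO-320DM and 448 and 364 in 320-IWR (log2 fold change -1.51 with a standard error of 0.44, adjusted p = 0.356). The COLO-320DM arrays of ADCY7 were themselves more than 2-fold apart, and a second probe set differed by -0.65 on the log2 scale.

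**Figure D4:**
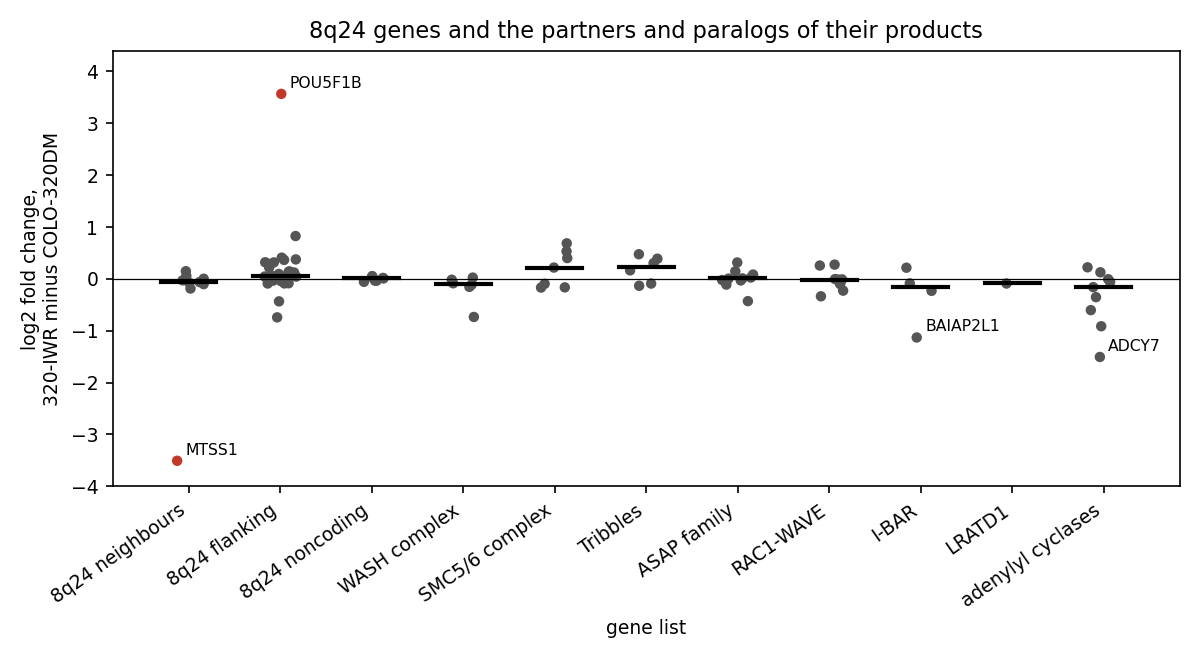
Log2 fold change (320-IWR minus COLO-320DM) of the brightest probe set of each measured gene, grouped by list, with black bars for list medians; red marks genes that passed the test, and genes beyond 2-fold are named. MTSS1 and POU5F1B are the genes that passed, and all list medians lie between -0.16 and 0.23.

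Replicates of these genes varied more than usual. The within-line SD of log2 values had a median of 0.23 over the 23 probe sets, beside 0.15 over all probe sets, and ranged from 0.04 to 0.52. In 19 of the 23 probe sets the arrays of the same replicate number deviated the same way in both lines, and in 14 of these replicate 2 was the higher. Over all probe sets the share that deviated the same way was 70.6%. The labels do not say that a number marks a shared batch. MTSS1 and LRATD2 show the pattern within their large differences, since 203037_s_at and 228870_at were higher in replicate 2 of each line. For LRATD2 228870_at the difference was 5.25-fold between the arrays numbered 1 and 5.02-fold between those numbered 2.

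The pattern of PVT1 over the 4 arrays was nearly flat. Among 10632 genes with a mean log2 value of at least 6, those closest to it by Euclidean distance of centred log2 values over the 4 arrays were CHASERR, LRRC56 and E4F1, at 0.02, 0.02 and 0.03 on the log2 scale. CHASERR, a long noncoding RNA gene, read 1183 and 1205 in COLO-320DM and 1115 and 1311 in 320-IWR. With 4 arrays such closeness says only that these genes were as level between the lines as this probe set of PVT1 was.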

How the data were processed

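The deposited table holds probe set intensities of 4 arrays on a linear scale. According to the labels the authors used RMA, without a version, and the paper's methods name GeneSpring GX for the normalization. The scale was read from the values. Log2 was taken with a floor of 1, which 0 values reached. Of 54675 probe sets 62 controls were left out. limma 3.58.1 in R 4.3.3 (lmFit and eBayes, constant prior with 2.78 degrees of freedom) was fitted to 54613 probe sets with the line as its 1 factor, and the script was tested on simulated data. Calls needed a Benjamini-Hochberg adjusted p under 0.05 and a 2-fold difference. Intervals are 95% intervals of limma's moderated statistic.

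In the platform annotation 41091 probe sets carry 1 symbol, 1801 several and 11721 none. For counts of genes the brightest probe set stands for its gene, by the mean log2 value over all arrays. All 9 symbols were current in the gene table of GRCh38.p14, which was used for gene order and from which no coordinates are given. Named genes are the 9 genes with all probe sets, MYC, POU5F1B, called genes and the largest changes of the flanking and partner lists, and the 3 genes most like PVT1. NDUFB9, LINC00964, CASC11, ENPP2, MTSS2, LRATD1, TRIB2, ARAP2 and the keratin, EPCAM and CDH1 markers were named after their values were seen. The genes and lists were chosen with earlier results of these data known.

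Alternatives were a block for the replicate number, 3 arrays instead of 4, cyclic loess, equal array medians, a limit of 6 on the mean log2 value of a line, a trended robust prior, other call limits, gene means over probe sets, ratios of arithmetic means, and leaving out probe sets that end in _x_at and _s_at. Counting the 4 probe sets of MIR1204 and PVT1 was added after seeing the data. The methods state no test. No sequence was printed.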

Additional observations from a re-analysis of the deposited data

How the results depend on the processing

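The numbers of calls among the 9 genes were small and moved with the setting. Of the 23 probe sets limma called 1, 2 under cyclic loess and 2 with a block for the replicate number, LRATD2 228870_at being the addition (adjusted p = 0.0432 and 0.0171). It called 0 at an adjusted p under 0.01, 0 without _x_at and _s_at probe sets, and 0 without any 1 of the arrays, with 1 to 3 probe sets at an unadjusted p under 0.05 in these fits. By brightest probe sets 1 gene was called, and 0 at an adjusted p under 0.01, without _x_at and _s_at probe sets, by the mean of all probe sets, or without any 1 array. Without 320-IWR replicate 1 or replicate 2, limma called 0 of all probe sets, with 3756 and 3502 at an unadjusted p under 0.05. Flanking genes gave 0 calls without _x_at and _s_at probe sets. That 0 was set in advance, because the only probe set with the symbol of POU5F1B alone ends in _x_at. Partner genes gave 0 calls in every setting run. Over the settings run for MTSS1 203037_s_at the adjusted p lay between 0.0157 and 0.293. The median log2 fold change of the 9 genes was -0.06, and -0.15 to 0.048 with an array left out. With an array left out, values near 0 changed sign, ranging from -0.11 to 0.12 for PVT1, -0.15 to 0.097 for TRIB1, -0.29 to 0.17 for NSMCE2, -0.060 to 0.18 for WASHC5, -0.25 to 0.048 for ASAP1 and -0.24 to 0.094 for ADCY8. PVT1 was at -0.0076 under cyclic loess, and the mean of all probe sets gave 0.034 for TRIB1 and 0.018 for ASAP1, and moved LRATD2 from -0.19 to -0.82. The cause was not tested, except that an array left out leaves fewer arrays to the fit and that without _x_at and _s_at probe sets MTSS1 is read by dim ones.

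As for pairing, deviations of same-numbered arrays correlated across probe sets (r = 0.661, and 0.813 at a mean log2 value of at least 6). But with 2 pairs and no label for a shared batch the arrays share only a number. With the replicate block 576 of all probe sets were called, against 202 without it, and 1 gene of the 9 by brightest probe set. The block changed none of the other calls among these genes. With 2 arrays a line, the number of arrays and the unknown background limit what dim probe sets can show.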
